A study of Mus musculus with 6 samples.

Results

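The 6 genes described here encode pancreatic digestive zymogens: the elastases *Cela1*, *Cela2a*, *Cela3a* and *Cela3b* and the carboxypeptidases *Cpa1* and *Cpb1*. They were taken by name, and all 6 were found among the 37224 genes measured. Expression was compared between whole wild-type (wt) pancreata of C57/Bl6J mouse embryos at 13.5 and 15.5 days post coitum (dpc), untreated, with 3 independent samples per stage. Each sample was a pool of pancreata from up to 3 embryos. Both stages carried the same genotype, so that stage is the only labelled difference between the groups.

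Acinar cells of the pancreas make digestive proteases as inactive zymogens, pack them into granules and release them towards the gut, where trypsin converts them to active enzymes. Elastases are serine proteases that cut inside proteins, next to small residues, whereas carboxypeptidases are zinc enzymes that take amino acids off the end of a chain, aromatic and branched ones in the case of Cpa1 and basic ones in the case of Cpb1. Production of these enzymes starts in the tips of the branching embryonic epithelium. *Cpa1* is also the classical marker of the multipotent tip progenitors that precede acinar cells, and the stages compared here bracket the secondary transition, when acinar and endocrine cells form in large numbers. The comparison therefore asks how the individual zymogen genes stand before and after this period.

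The 4 elastase genes lie on 2 chromosomes. In mm10, *Cela1* occupies chr15:100674425-100687920, *Cela2a* chr4:141814962-141826160, *Cela3a* chr4:137401554-137409791 and *Cela3b* chr4:137420999-137430540, all on the minus strand, so that *Cela3a* and *Cela3b* are neighbours. *Cpa1* is at chr6:30639218-30645363 on the plus strand and *Cpb1* at chr3:20248264-20275733 on the minus strand. The coding sequences of *Cela3a* and *Cela3b* were identical at 758 of 849 aligned positions (89.3%), against 56.9% to 61.4% for the other pairs of elastases and 56.8% for *Cpa1* and *Cpb1*. The first 145 coding bases of *Cela3a* and *Cela3b* were the same, and this stretch is shown because reads that lie within it cannot be assigned to either gene; the capitals mark the start codon.
Cela3a and Cela3b, coding bases 1 to 145: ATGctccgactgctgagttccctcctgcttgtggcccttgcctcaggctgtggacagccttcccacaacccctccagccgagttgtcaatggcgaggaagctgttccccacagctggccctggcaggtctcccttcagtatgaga

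Since the members moved together, their promoters are given as well. Acinar genes are known to be driven by the PTF1 complex, in which Ptf1a binds an E-box and Rbpjl or Rbpj binds a TGGGAA box. The 250 bases before each RefSeq start (GRCm38.p6) were searched on both strands for the E-box CACCTG, and 5 of the 6 members held it, against 17.2% of 32851 promoter windows of the same length. *Cpa1* was the exception. TGGGAA was found before *Cela2a*, *Cela3a* and *Cpa1*, against 21.6% of all windows. These are matches of letters and not evidence of binding. *Cela3a* and *Cela3b* have similar promoters (given below) and do not count as separate cases. Part of the windows of *Cela2a*, with its TGGGAA, and of *Cela3b* lies inside the gene spans given above, since the RefSeq starts lie within these spans. The promoters of the neighbours *Cela3a* and *Cela3b* and of *Cela2a* and *Cpb1*, whose levels had nearly the same ratio in all 6 samples (described after the levels), are shown 5′ to 3′ on the strand of the gene, with the E-box in capitals (it reads CAGGTG where it lies on the opposite strand).
Cela3a, chr4:137409792-137410041, minus strand: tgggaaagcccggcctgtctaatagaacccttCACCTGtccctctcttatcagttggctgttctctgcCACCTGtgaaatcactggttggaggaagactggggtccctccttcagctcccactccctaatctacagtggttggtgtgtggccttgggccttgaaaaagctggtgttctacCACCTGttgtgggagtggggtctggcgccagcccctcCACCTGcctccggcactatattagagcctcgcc
Cela3b, chr4:137430521-137430770, minus strand: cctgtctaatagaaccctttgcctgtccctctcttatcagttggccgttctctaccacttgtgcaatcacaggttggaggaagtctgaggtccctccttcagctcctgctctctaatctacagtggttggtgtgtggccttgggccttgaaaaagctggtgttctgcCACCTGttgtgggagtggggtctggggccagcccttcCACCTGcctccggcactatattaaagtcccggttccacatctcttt
Cela2a, chr4:141826006-141826255, minus strand: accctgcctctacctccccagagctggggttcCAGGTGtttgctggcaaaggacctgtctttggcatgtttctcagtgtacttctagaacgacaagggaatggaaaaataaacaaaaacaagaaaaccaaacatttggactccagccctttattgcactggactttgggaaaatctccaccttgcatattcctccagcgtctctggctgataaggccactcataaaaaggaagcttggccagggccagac
Cpb1, chr3:20275734-20275983, minus strand: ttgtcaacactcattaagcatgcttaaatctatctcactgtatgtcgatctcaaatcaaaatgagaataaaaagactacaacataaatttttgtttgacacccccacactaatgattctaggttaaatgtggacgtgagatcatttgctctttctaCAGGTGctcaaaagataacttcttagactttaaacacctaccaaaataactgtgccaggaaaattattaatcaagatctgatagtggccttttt

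The promoters of *Cela3a* and *Cela3b* were identical at 219 of 263 aligned positions (83.3%), whereas the other 14 pairs of members stood at 40.5% to 47.9%. Both hold a pair of E-boxes that begin 37 bases apart, at positions -70 and -33 from the start of *Cela3a* and at -83 and -46 from that of *Cela3b*. *Cela3a* has another 2 E-boxes at -218 and -182, which the letters of *Cela3b* lack. The single E-box of *Cela2a* is at -218 and that of *Cpb1* at -94, both on the opposite strand, and *Cela2a* also has TGGGAA at -85. The E-box of *Cela1* is at -109, followed by the nuclear receptor half-site AAGGTCA at -56 (4.08% of all windows) and a TATAAA box at -27 (12.4%).

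Transcripts were measured by poly(A) RNA sequencing, and the values are raw read counts per gene. Total counts ranged from 12895732 to 16389237 per sample at 13.5 dpc and from 10546028 to 12491550 at 15.5 dpc. The 6 members took 0.198%, 0.209% and 0.239% of all counts in replicates 1, 2 and 3 at 13.5 dpc and 1.26%, 0.624% and 1.08% at 15.5 dpc. The 15.5 dpc samples thus differed among themselves much more than the 13.5 dpc samples, and this held for each member other than *Cela3a*, whose 13.5 dpc counts were too low to judge.

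All 6 zymogen genes were higher at 15.5 dpc, and no member had overlapping values between the stages. Normalised read counts, that is counts divided by effective library size and brought to a common depth, were compared with the quasi-likelihood test of edgeR over 15578 genes that passed the filter on low counts. All 6 members passed this filter and were called higher at an adjusted p at or below 0.05. *Cela3a* passed through its 15.5 dpc counts alone and so had to differ, which leaves 5 of 5 members to be read against the 11.6% of all genes tested that were called higher. Values that did not overlap, in the same direction, were found for 22.8% of all genes. The members fell into a group that was already abundant at 13.5 dpc and rose moderately, *Cpa1* and *Cela1*, and a group that stood near or below 150 normalised counts at 13.5 dpc and rose steeply, *Cela2a*, *Cela3b*, *Cpb1* and *Cela3a*.

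*Cpa1* was the most abundant member at both stages. Its normalised count was 20900, 21875 and 25397 in the 13.5 dpc samples and 117459, 54250 and 108366 in the 15.5 dpc samples. The lowest 15.5 dpc sample, replicate 2, was still 2.14-fold above the highest 13.5 dpc sample. The log2 fold change was 2.04 ± 0.28 (SE, n = 3 per stage, edgeR adjusted p = 0.00345).

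*Cela1*, the elastase with the highest level, had normalised counts of 2128, 2288 and 2317 at 13.5 dpc and 26029, 11613 and 15389 at 15.5 dpc. The 13.5 dpc samples lay within 1.09-fold of each other, whereas the 15.5 dpc samples spanned 2.24-fold. The log2 fold change was 2.98 ± 0.29 (SE, n = 3, edgeR adjusted p = 0.00101), which 70 of the 15578 genes tested, itself included, reached or exceeded.

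*Cela2a* had normalised counts of 82.0, 114 and 147 at 13.5 dpc, and these rose to 13854, 4951 and 5949 at 15.5 dpc. Even the lowest of the later samples was 33.8-fold above the highest of the earlier ones. The log2 fold change was 6.17 ± 0.49 (SE, n = 3, edgeR adjusted p = 0.000668), and it was 5.56 without replicate 1 of 15.5 dpc, the sample with the highest value.

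*Cpb1* followed the same course, with 73.8, 111 and 134 normalised counts in the earlier and 12765, 4551 and 5544 in the later samples. The log2 fold change was 6.15 ± 0.50 (SE, n = 3, edgeR adjusted p = 0.000668) and 5.55 without replicate 1 of 15.5 dpc. Hence the carboxypeptidases were far apart, since *Cpa1* rose 4.11-fold and *Cpb1* 71.5-fold as ratios of mean normalised counts.

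*Cela3b* had the largest spread at 15.5 dpc. The earlier samples held 97.5, 120 and 142 normalised counts and the later ones 18662, 4335 and 7652, where the highest sample was 4.31-fold above the lowest. The log2 fold change was 6.41 ± 0.61 (SE, n = 3, edgeR adjusted p = 0.000957), a value that 6 genes of all tested reached or exceeded, itself included. Without replicate 1 of 15.5 dpc it was 5.64.

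*Cela3a* was barely detected at 13.5 dpc, with 1, 1 and 0 raw counts, and had 58, 33 and 29 raw counts at 15.5 dpc. With 2 counts in all at the earlier stage, its fold is poorly determined: the ratio of summed counts over effective library sizes was 87.9, with an exact 95% counting interval of 23.8 to 734. The fitted log2 fold change of 6.20 ± 0.71 (SE, n = 3, edgeR adjusted p = 0.0017) depends on the prior count of the model and was 5.61 without replicate 3 of 13.5 dpc, the sample with no count. Taken as 3 counts of the library total, the limit that the 0 in that sample allows is 0.183 CPM (counts scaled to the library total). Such intervals and limits cover counting error only.

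**Figure D1:**
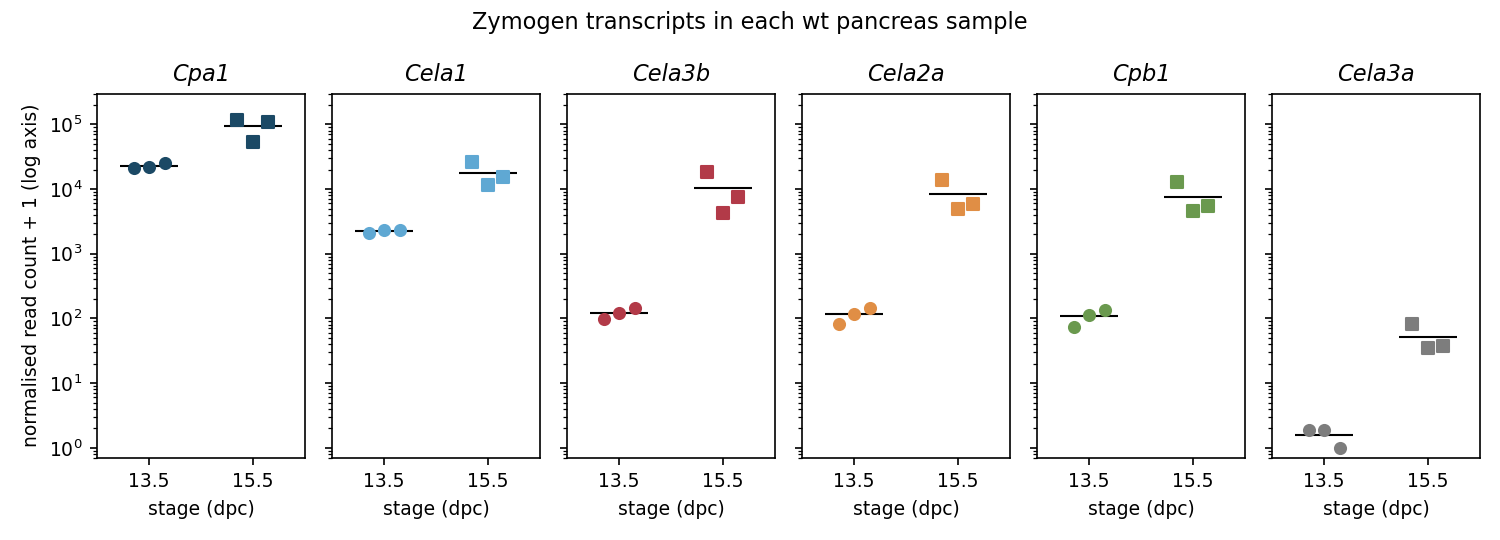
Normalised read count plus 1 (log axis) of each member in each sample at 13.5 dpc (circles) and 15.5 dpc (squares); the bars mark stage means, n = 3. No member overlaps between stages, and *Cpa1* and *Cela1* start far above the other members at 13.5 dpc.

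The samples that were high or low were the same for most members. At 13.5 dpc, replicate 1 was the lowest and replicate 3 the highest for the 5 members other than *Cela3a*. In normalised counts at 15.5 dpc, replicate 1 was the highest and replicate 2 the lowest for all 6. As a share of the library, *Cpa1* was highest in replicate 3 (0.816%, against 0.786% in replicate 1), as it was in TPM, and *Cela3a* was lowest in replicate 3 in TPM. The distance also differed, and in normalised counts replicate 1 exceeded replicate 3 by 2.44-fold for *Cela3b*, 2.33-fold for *Cela2a* and 2.30-fold for *Cpb1*, by 1.69-fold for *Cela1* and by 1.08-fold for *Cpa1*. As a result, replicates 1 and 3 stood together for *Cpa1* and replicates 2 and 3 stood together for *Cela2a* and *Cpb1*. The coefficient of variation at 15.5 dpc was lowest for *Cpa1* (36.6%) and highest for *Cela3b* (73.4%).

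Levels were compared between genes per length, as counts per kilobase of exon brought to the same sum in each sample (TPM, as for transcripts). *Cpa1* stood at 2905 ± 385 TPM (SD, n = 3) at 13.5 dpc, the 20th highest mean of the 37224 genes, and at 8119 ± 2090 at 15.5 dpc, the 7th highest. *Cela1* came second with 455 ± 31 TPM, rank 261, and 2408 ± 488 TPM, rank 25. The order from there on was *Cela3b* (16.1 ± 3.4 TPM and 881 ± 468), *Cela2a* (14.9 ± 4.6 and 705 ± 261), *Cpb1* (7.28 ± 2.26 and 341 ± 125) and *Cela3a* (0.135 ± 0.117 and 7.79 ± 2.34), and this order was the same at both stages. *Cela3b* and *Cela2a* overlapped at both stages and do not differ beyond their spread. Of the other neighbours in this order, none overlapped at either stage.

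These levels carry limits that come from the gene models. The *Cela2a* gene shares 305 exon bases with a read-through transcript of *Ctrc* on the same strand and 94 with *Casp9* on the other strand. Whether reads in shared exons were counted, and whether the counting used the strand, is not given in the sources used here. The exon length of *Cela3b* includes a retained intron, and 34.2% of the 50-base windows of *Cela3a* and 19.2% of those of *Cela3b* occur in the other gene, from which reads would not align uniquely. When the length of the coding transcript outside other genes was used instead, a choice made after seeing the data, *Cela2a* (1587 ± 587 at 15.5 dpc, SD, n = 3) and *Cela3b* (1585 ± 841) stood at almost the same mean, and their highest samples reached the range of *Cela1* (2397 ± 486). In counts, *Cela3a* came to between 0.430% and 0.778% of *Cela3b* at 15.5 dpc.

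The mix of zymogen transcripts differed between the stages. Per kilobase of exon, *Cpa1* made up 85.3%, 84.8% and 86.3% of the 6 members at 13.5 dpc and 58.9%, 64.0% and 72.3% at 15.5 dpc. *Cela1* rose from 13.8%, 14.1% and 12.5% to 20.7%, 21.7% and 16.3%. The shares of *Cela3b* (0.471% ± 0.046, SD, n = 3, against 6.86% ± 2.58), *Cela2a* (0.431% ± 0.084 against 5.67% ± 1.53) and *Cpb1* (0.211% ± 0.044 against 2.75% ± 0.73) were all larger at 15.5 dpc. The size of these differences depended on the length used: with the coding transcript outside other genes, *Cela2a* gained 9.73 percentage points in place of 5.24, *Cela3b* 9.45 in place of 6.39 and *Cela1* 4.06 in place of 6.14, and without length *Cpb1* gained 5.03 in place of 2.54. None of the 6 shares overlapped between the stages, and each gave the smallest p that 3 samples against 3 allow in a two-sided exact permutation test, p = 0.1, so that no share could pass a threshold of 0.05. Shares within a sample do not depend on the scaling between libraries.

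**Figure D2:**
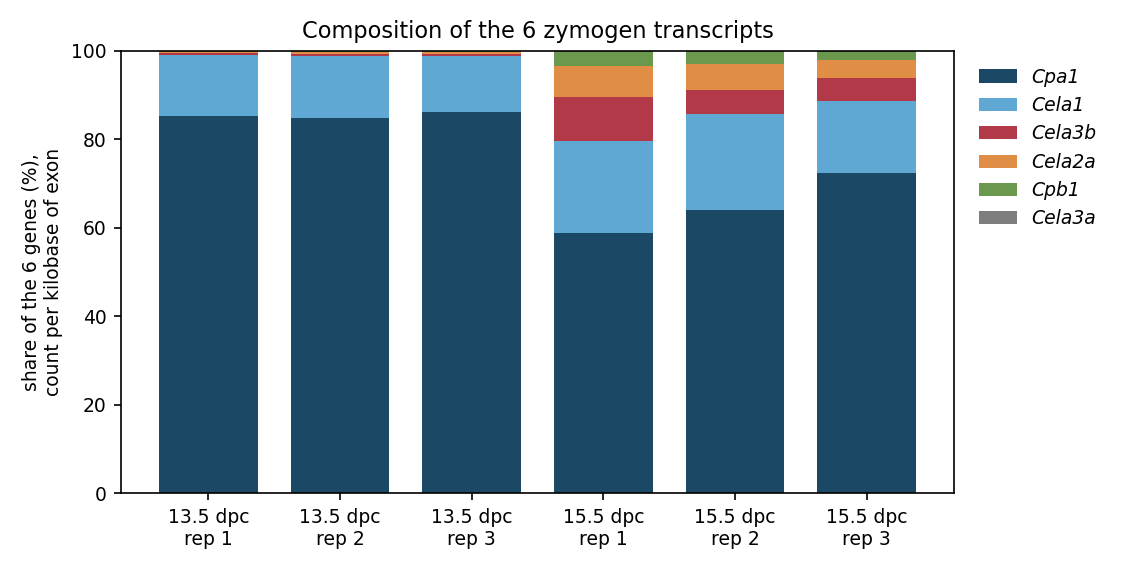
Share of each member in the summed count per kilobase of exon of the 6 members (%), by sample. *Cpa1* makes up 84.8% to 86.3% of the members in the 13.5 dpc samples and between 58.9% and 72.3% in the 15.5 dpc samples, where *Cela3b*, *Cela2a* and *Cpb1* become visible.

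Ratios between members, on the log2 scale per base of exon with 0.5 added to each count, were compared for all 15 pairs. *Cela2a* and *Cpb1*, an elastase and a carboxypeptidase from different chromosomes, kept nearly the same ratio in every sample. The raw counts of *Cela2a* and *Cpb1* were 90 and 81, 133 and 130, and 204 and 187 at 13.5 dpc, and 10011 and 9224, 4842 and 4450, and 4724 and 4403 at 15.5 dpc. The ratio of counts was therefore 1.11, 1.02 and 1.09 at the earlier stage and 1.09, 1.09 and 1.07 at the later stage, with 95% counting intervals of 0.814 to 1.52 at the widest and 1.05 to 1.12 at the narrowest. The log2 ratio per base was 1.03 ± 0.06 (SD, n = 3) at 13.5 dpc and 1.04 ± 0.01 at 15.5 dpc (two-sided exact permutation p = 1), over a rise of 72.3-fold in the mean of *Cela2a* and 71.5-fold in that of *Cpb1*.

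*Cela3b* did not keep as close to this pair. Its log2 ratio to *Cpb1* was 1.38, 1.09 and 1.05 at 13.5 dpc and 1.53, 0.91 and 1.44 at 15.5 dpc, so that the stages overlapped (two-sided exact permutation p = 0.7). The samples at 15.5 dpc nevertheless spread by more than for *Cela2a*. The 6 pairs among *Cela2a*, *Cela3a*, *Cela3b* and *Cpb1* all overlapped between the stages, whereas all 9 pairs that hold *Cpa1* or *Cela1* did not. *Cela3b* over *Cpa1* showed the largest difference, from -7.50 ± 0.14 (SD, n = 3) to -3.30 ± 0.63, and *Cela1* over *Cpa1* the smallest of the 9, from -2.67 ± 0.10 to -1.74 ± 0.36. Each of the 9 had an exact permutation p of 0.1, the smallest this design allows, and 0.167 after Benjamini-Hochberg adjustment over the 15 pairs.

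**Figure D3:**
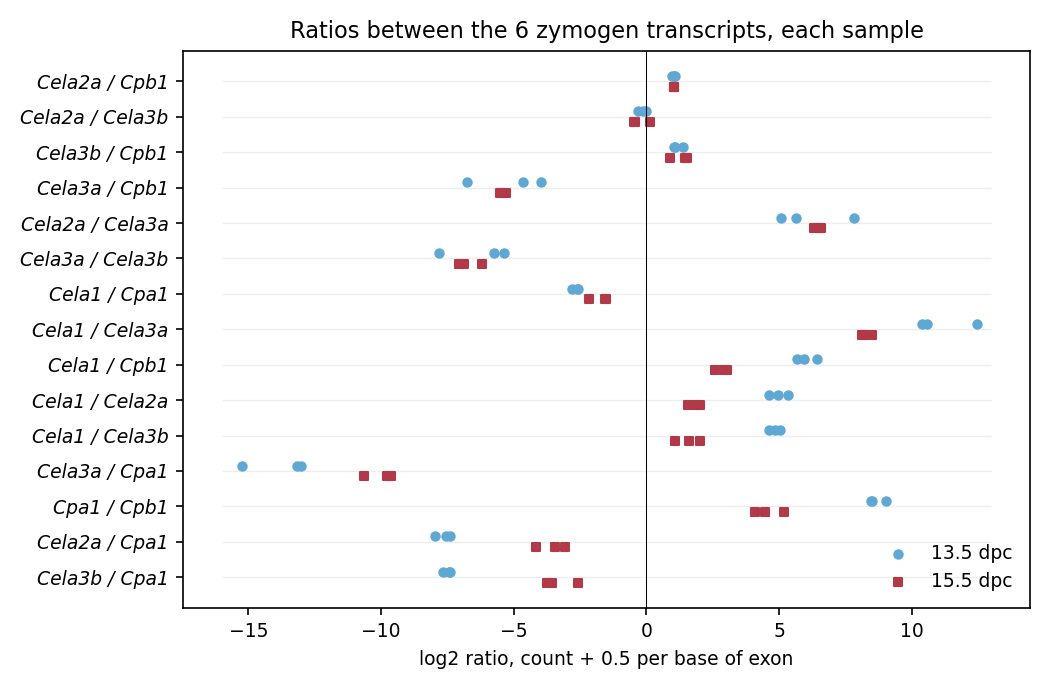
Log2 ratio of count plus 0.5 per base of exon for all 15 pairs of members, each point a sample at 13.5 dpc (circles) or 15.5 dpc (squares). The points of *Cela2a* over *Cpb1* lie on top of each other near 1, and all pairs with *Cpa1* or *Cela1* shift between the stages.

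Genes with the most similar profile were sought among the genes tested that are not members, as the root mean square difference of log2 CPM centred on the mean of the 6 samples. For *Cela3b* the closest gene was *Prss1*, a trypsinogen, at 0.090, followed by the secreted ribonuclease gene *Rnase1* (0.144) and the trypsinogen *Try4* (0.290). *Prss1*, *Rnase1* and *Try10* were the closest to *Cela2a* and to *Cpb1*, at 0.178, 0.253 and 0.292 for the former. Among the members themselves the distance was 0.036 between *Cela2a* and *Cpb1*, 0.222 between *Cela2a* and *Cela3b* and 0.227 between *Cela3b* and *Cpb1*. *Cela3a* was closest to the amylase gene *Amy2a5* (0.214), *Zp3* (0.323) and *Sycn* (0.345), which encodes the granule protein syncollin. *Cela1* was closest to *Upk1a* (0.099), *Dhrs7* (0.108) and the lipase-related *Pnliprp2* (0.133), and *Cpa1* to *Msln* (0.138), *Mlph* (0.160) and *Mt2* (0.173), which encodes a metallothionein. Only 6 samples of 2 stages enter these distances, and a prior count of 2 was added, so that the profiles of *Cela3a* and of neighbours with few counts at 13.5 dpc, such as *Amy2a5*, *Zp3*, *Try4*, *Rnase1* and *Mlph*, depend on that choice.

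The other genes of acinar proteases rose as well. Of 12 genes listed, 12 were tested and 12 were called higher at 15.5 dpc by edgeR, against the 11.6% of all genes called higher. However, 3 of them (*Ctrc*, *Klk1* and *Try4*) had under 10 counts in a 13.5 dpc sample. They passed the filter through the later stage and so were selected towards being higher there, and their calls are no support. Their median log2 fold change was 5.45, beside 6.16 for the 6 members and -0.01 for all genes tested. The list median keeps *Ctrc*, *Klk1* and *Try4*, which all lay above it (5.97, 5.73 and 6.60), and is raised by them. The member median likewise keeps *Cela3a*. Without replicate 1 of 15.5 dpc these medians were 4.67 for the list and 5.56 for the members. The median of the members was 5.36 with *Cela3a* set to the lower end of its counting interval. *Prss1* (6.23 ± 0.57, SE, n = 3, adjusted p = 0.000899) had a log2 fold change near those of the steep members, and was at 5.52 without replicate 1 of 15.5 dpc. *Try4*, given as a description only, went from raw counts of 5, 3 and 6 in the earlier samples to 507, 170 and 223 in the later ones. *Ctrb1*, the chymotrypsinogen gene that had the most counts of this list, rose by 3.75 ± 0.35 (adjusted p = 0.000957). *Ctrl*, another gene of the chymotrypsin family, rose by 1.83 ± 0.32 (adjusted p = 0.00821). *Cpa1* and *Cela1* thus had smaller log2 fold changes than the list median, whereas *Cela2a*, *Cela3b* and *Cpb1* were above it, and the counting interval of *Cela3a* (4.57 to 9.52 on the log2 scale) spans it. Trypsinogen genes are near-identical copies, and their individual counts are uncertain.

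*Ctrc*, the chymotrypsinogen C gene next to *Cela2a*, was the exception in its distribution over samples. Normalised counts of *Ctrc* were 3.64, 2.57 and 7.90 in the earlier and 77.5, 795 and 55.4 in the later samples, so that replicate 2, the lowest sample for all members, was the highest here. The log2 fold change was 5.97 ± 1.35 (SE, n = 3, edgeR adjusted p = 0.0202) and 3.74 without that replicate. The call was lost without any of the 13.5 dpc samples, with log2 fold changes of 5.68 to 6.60 and edgeR adjusted p from 0.0819 to 0.0846. With limma voom the adjusted p was 0.0805, and DESeq2 gave no adjusted p for this gene. The part of the shared exons with *Cela2a* in these values was not tested.

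Of 15 genes for other secreted products and granule proteins, 14 were tested and 14 were called higher, against the 11.6% of all genes, with a median log2 fold change of 3.39. Among these 14, 5 (*Amy2a5*, *Gp2*, *Pnlip*, *Rnase1* and *Zg16*) had under 10 counts in a 13.5 dpc sample. They passed the filter through the later stage and so were selected towards being higher there. Their calls are therefore no support, and their values and fits are given as a description only. The median keeps these 5 genes, of which all but *Pnlip* lay above it. *Cuzd1* did not pass the filter. *Rnase1* went from raw counts of 4, 8 and 8 to 859, 281 and 369, and its fitted log2 fold change of 6.85 was 6.07 without replicate 1 of 15.5 dpc. *Zg16*, a gene for a granule lectin, had 2 counts at 13.5 dpc and 322 at 15.5 dpc, a ratio of 236 with a 95% counting interval of 64.8 to 1957, and its fitted log2 fold change of 7.67 was 6.89 without replicate 1 of 15.5 dpc. *Cckar*, the cholecystokinin receptor gene, rose by 1.56 ± 0.11 (adjusted p = 0.000472). *Pnliprp1*, the gene with the most counts here, rose by 3.39 ± 0.22 (adjusted p = 0.000355). Pancreatic lipase itself, *Pnlip*, stayed low, with 37.4, 15.3 and 26.4 normalised counts at 15.5 dpc after 4, 4 and 17 raw counts at 13.5 dpc (log2 fold change 1.91 ± 0.54, SE, n = 3, and 2.82 without replicate 3 of 13.5 dpc; the call was lost without any of 4 other samples, at 1.58 to 1.90).

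Transcription factors of acinar cells changed less than the enzymes. Of 9 tested, 6 were called higher and 1 lower by edgeR, beside 22.3% of all genes called in either direction, with a median log2 fold change of 1.15. *Bhlha15*, which encodes the acinar maturation factor Mist1, rose by 2.23 ± 0.13 (SE, n = 3, adjusted p = 0.000309) and *Rbpjl*, the acinar partner within PTF1, by 2.08 ± 0.12 (adjusted p = 0.000323). *Rbpj*, the partner that *Rbpjl* replaces, was lower by -0.33 ± 0.10 (adjusted p = 0.0481), a call that was lost without any 13.5 dpc sample and without replicate 3 of 15.5 dpc (log2 fold changes of -0.38 to -0.30). *Ptf1a*, chosen here after its values were seen, had normalised counts of 599, 640 and 653 at 13.5 dpc and 3454, 1963 and 2516 at 15.5 dpc, and its log2 fold change was 2.07 ± 0.20 (edgeR adjusted p = 0.00101). Replicate 1 was thus the highest and replicate 2 the lowest of the later samples for *Ptf1a* too. The list as a whole did not share this order. Of the 9 factors, 4 had the order of replicates 1, 3 and 2 from high to low and 3 had the reverse. In CPM these were 3 and 5.

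Inhibitors that hold pancreatic proteases in check did not move in a single direction. Of 5 tested, 3 were higher and 2 lower, against 11.6% of all genes called higher and 22.3% called in either direction. The higher ones were the secreted trypsin inhibitor gene *Spink1* (log2 fold change 2.55 ± 0.37, SE, n = 3, edgeR adjusted p = 0.00391), *Serpini2* (2.45 ± 0.16, adjusted p = 0.000355) and *Lxn* (1.08 ± 0.17, adjusted p = 0.00499), which encodes the carboxypeptidase inhibitor latexin. The antitrypsin genes *Serpina1a* and *Serpina1b* fell by 2.38 ± 0.27 (adjusted p = 0.00155) and by 2.08 ± 0.15 (adjusted p = 0.000472) on the log2 scale. Of 5 liver markers tested, *Fgb* (log2 fold change -1.24 ± 0.20, adjusted p = 0.0063) and *Afp* (-0.66 ± 0.17, adjusted p = 0.0291, a call lost without replicate 1 or 2 of 13.5 dpc or replicate 3 of 15.5 dpc, at -0.68 to -0.51) were lower as well and the other 3 were not called. The summed level of the 5 was 517 to 576 CPM at 13.5 dpc and 455 to 724 at 15.5 dpc, of which *Ttr* alone made up 75.5% to 90.8% (log2 fold change 0.48 ± 0.22, adjusted p = 0.152). Without *Ttr*, a split made after seeing the data, the other 4 summed to 91.9 to 142 CPM at 13.5 dpc and 52.6 to 66.4 CPM at 15.5 dpc, so that the stages did not overlap. The part of liver RNA in the fall of *Serpina1a* and *Serpina1b* was not tested. *Serpina1a* and *Serpina1b* are near-identical copies whose separate counts are uncertain. Carboxypeptidase genes outside the acinar set gave 3 higher, 3 lower and 5 not called among 11 tested of 14 listed, beside the same 11.6% higher and 22.3% in either direction over all genes, with a median of -0.09. The highest were *Cpn1* (0.88 ± 0.11, adjusted p = 0.00238) and *Cpe*, the prohormone-processing enzyme of endocrine cells (0.79 ± 0.13, adjusted p = 0.00723). *Cpa4* (-1.27 ± 0.14, adjusted p = 0.00152) and *Cpb2* (-1.23 ± 0.26, adjusted p = 0.0173) were the lowest, the latter a call that was lost without any 13.5 dpc sample or without replicate 3 of 15.5 dpc (log2 fold changes of -1.30 to -0.99).

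**Figure D4:**
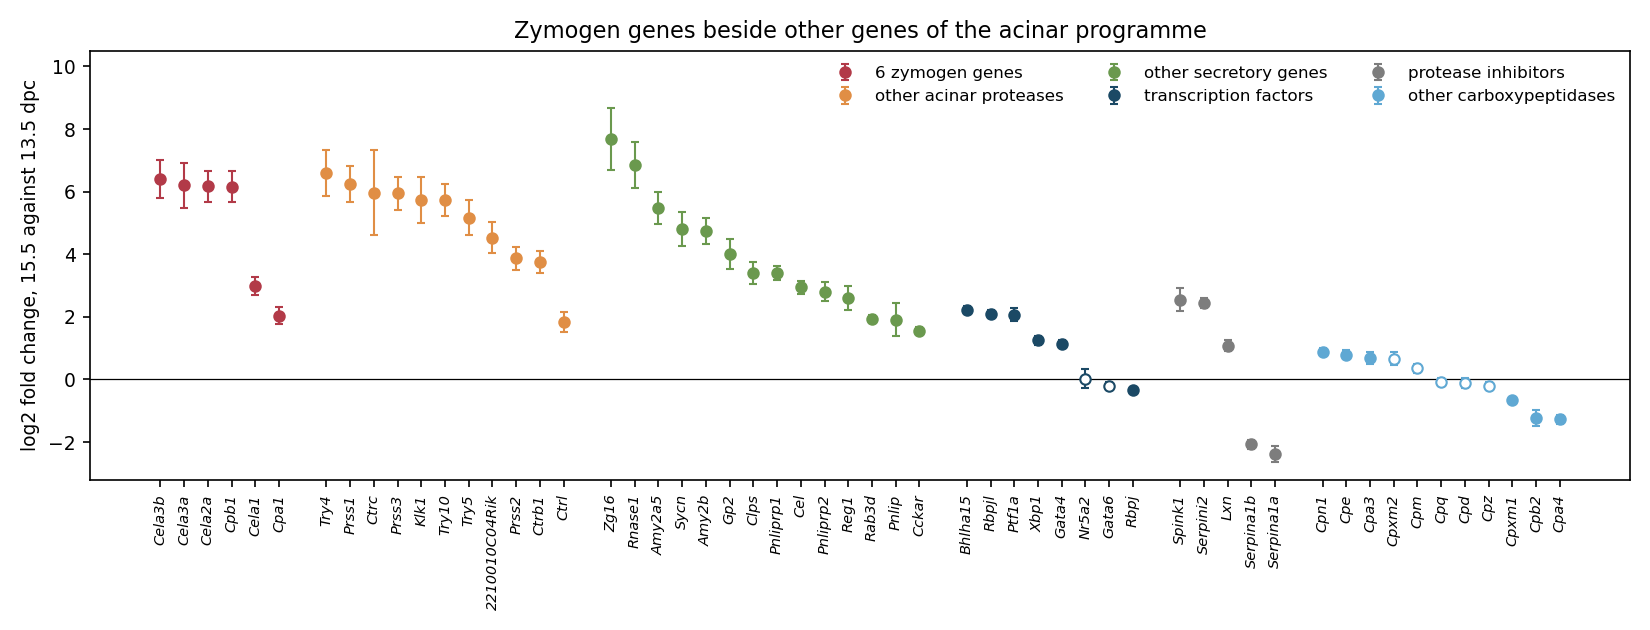
Log2 fold change of 15.5 against 13.5 dpc with its standard error (edgeR, n = 3 per stage) for the 6 members and the genes tested of 5 lists, apart from those not reported by name; filled points have an adjusted p at or below 0.05. The members, the other acinar proteases and the other secretory genes all lie above 0, and *Cpa1* and *Cela1* lie below the other 4 members.

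Pancreata are bulk tissue, in which more cells of a type and more RNA per cell cannot be told apart. Each member was therefore also set against 10 genes of the pancreatic epithelium, such as *Epcam* and *Cdh1*, as the log2 ratio to their geometric mean. These ratios use counts without gene length, so that only their change between the stages is read and not the level against these genes. *Cela1* was at -0.08, -0.03 and -0.03 at 13.5 dpc and at 3.00, 2.10 and 2.42 at 15.5 dpc. *Cpb1* went from -4.92, -4.38 and -4.14 to 1.97, 0.75 and 0.94. The difference between the stages was 1.62 for *Cpa1*, 2.55 for *Cela1*, 5.43 for *Cela3a*, 5.70 for *Cpb1*, 5.71 for *Cela2a* and 5.82 for *Cela3b*, and the stages did not overlap for any member (two-sided exact permutation p = 0.1 each, the smallest possible with n = 3 per stage). The rise remained with this reference, although each difference was below the fitted log2 fold change of the same gene. The 2 are unlike measures, a mean of log2 ratios per sample and a fit to the counts. How much of the gap comes from the reference was not tested.

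Marker lists of tissue components also differed between the 15.5 dpc samples, in differing orders and not for every gene of a list. On the scale of normalised counts used for the members, 10 mesenchyme genes summed to 90514, 133719 and 116733 in replicates 1, 2 and 3, as a sum in the reverse order of the members, and to between 122409 and 138358 at 13.5 dpc. Of the 10 mesenchyme genes, 5 had this order (7 in CPM), among them the collagen genes *Col1a1*, *Col1a2* and *Col3a1*, which made up 80.8% to 87.5% of the sum at 15.5 dpc, whereas *Vim* and *Barx1* had the order of the members (1 gene in CPM) and 3 had neither. Between the stages, 2 were called higher and 2 lower, beside 11.6% higher and 22.3% in either direction over all genes, which also stand beside the counts of the following lists. The 5 erythroid genes summed to 37533, 13411 and 21993 normalised counts in the same samples, in the order of the members, against 10940 to 12440 at 13.5 dpc, and 2 of the 5 were called higher. The 10 epithelial genes summed to 46601, 37158 and 39905 normalised counts, also in the order of the members, against 29391 to 30926 at 13.5 dpc, with 4 called higher and 1 lower. Of the 10, 6 had the order of the members at 15.5 dpc (5 in CPM) and 4 the reverse order. The part of these components in the spread of the members was not tested. Of the intestinal markers, *Vil1* was at 128 to 159 normalised counts at 13.5 dpc and at 297 to 356 at 15.5 dpc, and was called higher (log2 fold change 1.20 ± 0.14, SE, n = 3, edgeR adjusted p = 0.00162). The markers *Fabp2*, *Cdx1*, *Cdx2* and *Apoa4* were at or near 0 in all samples, at 5.04 normalised counts or below, as was *Tmprss15* (6.92 or below), which encodes the gut protease that activates trypsinogen.

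**Figure D5:**
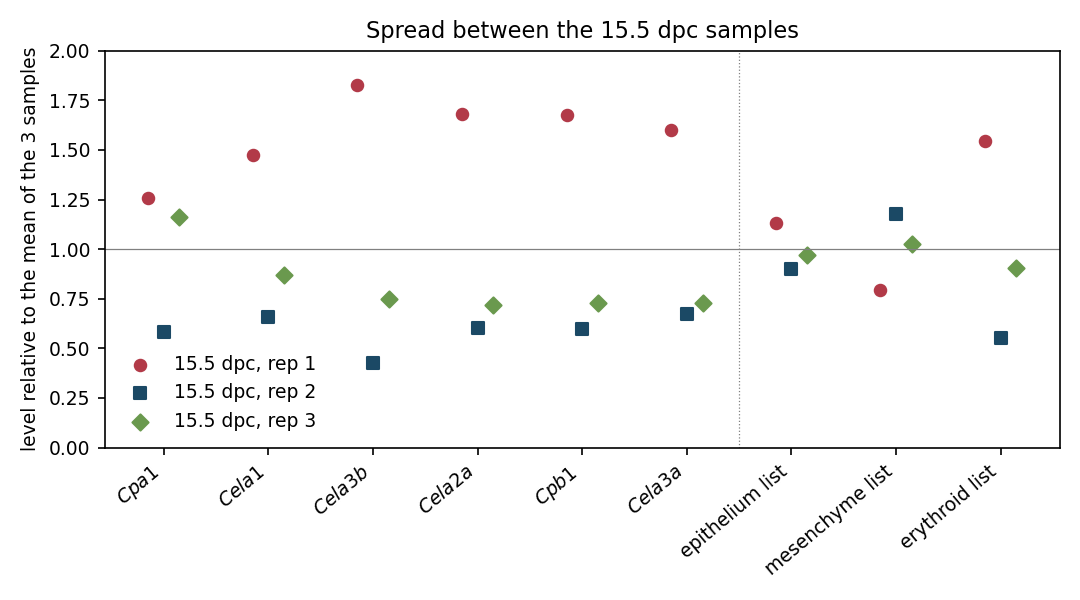
Level of each member (normalised read count) and of 3 marker lists (summed normalised read count) in each 15.5 dpc sample, relative to the mean of the 3 samples. Replicate 1 is highest and replicate 2 lowest for all members, the sum of the mesenchyme list has the reverse order, and those of the epithelium list (1.13, 0.901 and 0.968 of their mean) and of the erythroid list have the order of the members.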

How the data were processed

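Libraries were strand-specific poly(A) RNA libraries from RNA with an integrity number of at least 8, sequenced from a single end. Reads were mapped by the authors with GSNAP (mm10), and those with a unique position were assigned to Ensembl genes by featureCounts 1.4.6 (version per the submitters' processing notes). The deposited values are raw counts, without normalisation, with the exon length of each gene, of which 35449 of 37224 identifiers had a symbol in the gene name table used here. All 6 columns of counts were used. Multi-mapping reads are absent from unique counts, so near-identical genes are understated.

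Counts were filtered with filterByExpr, normalised with TMM factors and tested with the quasi-likelihood test of edgeR 4.0.16 (R 4.3.3) without covariates, all 15578 genes together, with p-values adjusted after Benjamini and Hochberg. The SE of a log2 fold change was obtained from its F statistic. Ratios and shares were compared over samples with exact permutation tests (SciPy). DESeq2 1.42.0 and limma 3.58.1 gave alternatives. Further alternatives were other scalings, filters, a replicate block, removal of a length trend and leaving out each sample. Another gene length was added after seeing the data. The scripts were tested on simulated data. Promoters came from RefSeq (GRCm38.p6) and transcripts from GENCODE M21, and sequences were aligned with Biopython.

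The members and lists were chosen with earlier results of these data known. Genes named are the members, all tested genes of the protease and inhibitor lists where described, of the other acinar and carboxypeptidase lists the 2 highest and 2 lowest called and the most abundant, and the 3 closest profiles per member. Some list genes enter the counts but are not reported by name. Of the marker lists, those for mesenchyme, erythroid, epithelial and intestinal cells are given by sums or levels, and all others in the closing section. The numbers of the replicates were not found to pair the samples.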

Additional observations from a re-analysis of the deposited data

How the results depend on the processing

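The 5 members other than *Cela3a* stayed higher and called at 15.5 dpc under every alternative. *Cela3a* did so too where it was tested, but it had to differ and is not counted as support. *Cela3a* could not be tested with at least 10 counts in every sample, and 5 members met the thresholds of the study's methods, since *Cela3a* stayed below 100 normalised counts. Library size alone and scaling to epithelial counts shifted the median over all genes to -0.22 and -0.44 (log2), and the number of genes called higher from 1805 to 1133 and 775 and lower from 1662 to 2952 and 6514. With the length trend removed, 2812 were higher. Leaving out a sample gave 716 to 3924 genes called higher and 519 to 3696 lower. The acinar factor called lower (*Rbpj*, 1 in the main test) became 0 with relative log expression factors, limma voom, no filter, the replicate block or the length trend removed, 2 with epithelial scaling, and 0 to 1 when a sample was left out. Other carboxypeptidases called higher became 5 without the length trend, and called lower 5 with epithelial scaling. With at least 10 counts in every sample, 9 secretory genes were higher, as fewer genes were tested. Causes of these shifts were otherwise not tested.

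The change of a share among the members (percentage points) depended on the length used: 9.73 for *Cela2a* and 9.45 for *Cela3b* with the coding transcript outside other genes, against 5.24 and 6.39, and 0.0343 for *Cela3a* and 5.03 for *Cpb1* without length, against 0.0593 and 2.54. No direction changed.

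Same-numbered samples correlated in their deviations from stage means at 0.22, -0.22 and 0.04, so the numbers were not read as pairs. With the replicate block, the members other than *Cela3a* remained called, with the lowest log2 fold change at 1.97 (*Cpa1*). *Cela3a*, at 6.18, was called too, but it had to differ and its call is no support. Of all genes, 1426 and 1250 were higher and lower with this block.

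Depth limits *Cela3a* and *Zg16* at 13.5 dpc, and 3 samples per stage limit every permutation test to p = 0.1.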

Other observations

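Further marker lists cover other cell types of the embryonic organ and its surroundings. Of 5 endothelial genes tested, 0 were called by edgeR at an adjusted p at or below 0.05, and 0 had an unadjusted p below 0.05 or were called by DESeq2 or limma voom. Beside 11.6% of all genes called higher and 22.3% called in either direction, of 7 endocrine genes 3 were called higher and 2 lower, of 4 duct and trunk genes 2 higher and 1 lower, of 6 leukocyte and mast cell genes 1 higher and 2 lower, and of 5 liver genes 2 lower.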
